A study of Talinum fruticosum with 24 samples.

Results

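A group of 22 leaf features showed nearly the same level in mock-sprayed and ABA-sprayed leaves through the day and evening after spraying, and a much lower level in ABA leaves the next morning. They were picked by their measured values from 16461 features with a mean of at least 10 counts per library. Levels are CPM, counts scaled to library size after TMM correction for library composition, and d is the mean log2(CPM + 1) of ABA libraries minus that of mock libraries at one harvest. A member had d of at most -2 at 1280 min, both ABA libraries of 1280 min below both mock libraries, and d within 0.5 of 0 at each of the 5 earlier harvests, from 40 to 640 min. The gap between treatments is therefore a description of how the members were chosen, and no test of it is read as a finding. Beside the 22, another 406 features met the same limit at 1280 min but were not within 0.5 at all 5 earlier harvests, and 44 features showed the mirror pattern, higher with ABA at 1280 min alone.

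The plants were Talinum triangulare (also named Talinum fruticosum), a leaf succulent with C3 photosynthesis that can take up carbon at night by crassulacean acid metabolism (CAM) when short of water. Leaves of 2-month-old plants, kept watered at 25 °C by day and 23 °C by night, were sprayed with 200 µM ABA or with a mock solution, both in dilute methanol with Tween-20. The first spray came 4 h into a 12 h light period, a second followed 4 h later, and harvests followed the first spray by 40 min and then at doubling intervals of 80, 160, 320, 640 and, last, 1280 min. Each of the 12 combinations of treatment and harvest held 2 libraries from different plants, each pooling 2 leaves of 1 plant, so p-values rest on the spread between plants.

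In plants, ABA is the hormone of water shortage: it closes stomata, slows growth and redirects transcription, and in some facultative CAM species it is part of the signal that starts CAM. Many leaf transcripts also follow the time of day, driven by light and by the circadian clock, and those that peak after dawn prepare the leaf for photosynthesis and growth. A difference seen at one time of day can therefore lie in a transcript's daily rise or fall. The harvests from 40 to 320 min fell in the first light period, from 4.7 to 9.3 h after lights on. Leaves of 640 min were taken in darkness, 2.7 h after lights off, and those of 1280 min 1.3 h into the next light period. The 320 min harvest also came 80 min after the second spray, so time of day, time since the sprays and the second spray cannot be told apart along the series.

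The files give feature identifiers without gene names, and no sequence or annotation was used, so no role is given to any member and the leaf label could not be checked against marker genes. Members are numbered 1 to 22 by their mean mock CPM at 1280 min. That order follows read counts, which also grow with transcript length, and ranks no gene's expression above another's. Only a few identifiers are given. Library totals ran from 16577222 to 26846579 counts. The ABA libraries of 1280 min stood further apart than any other pair of replicates (r = 0.9696 across features, against 0.977 to 0.9914 in the other groups).

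**Figure D1:**
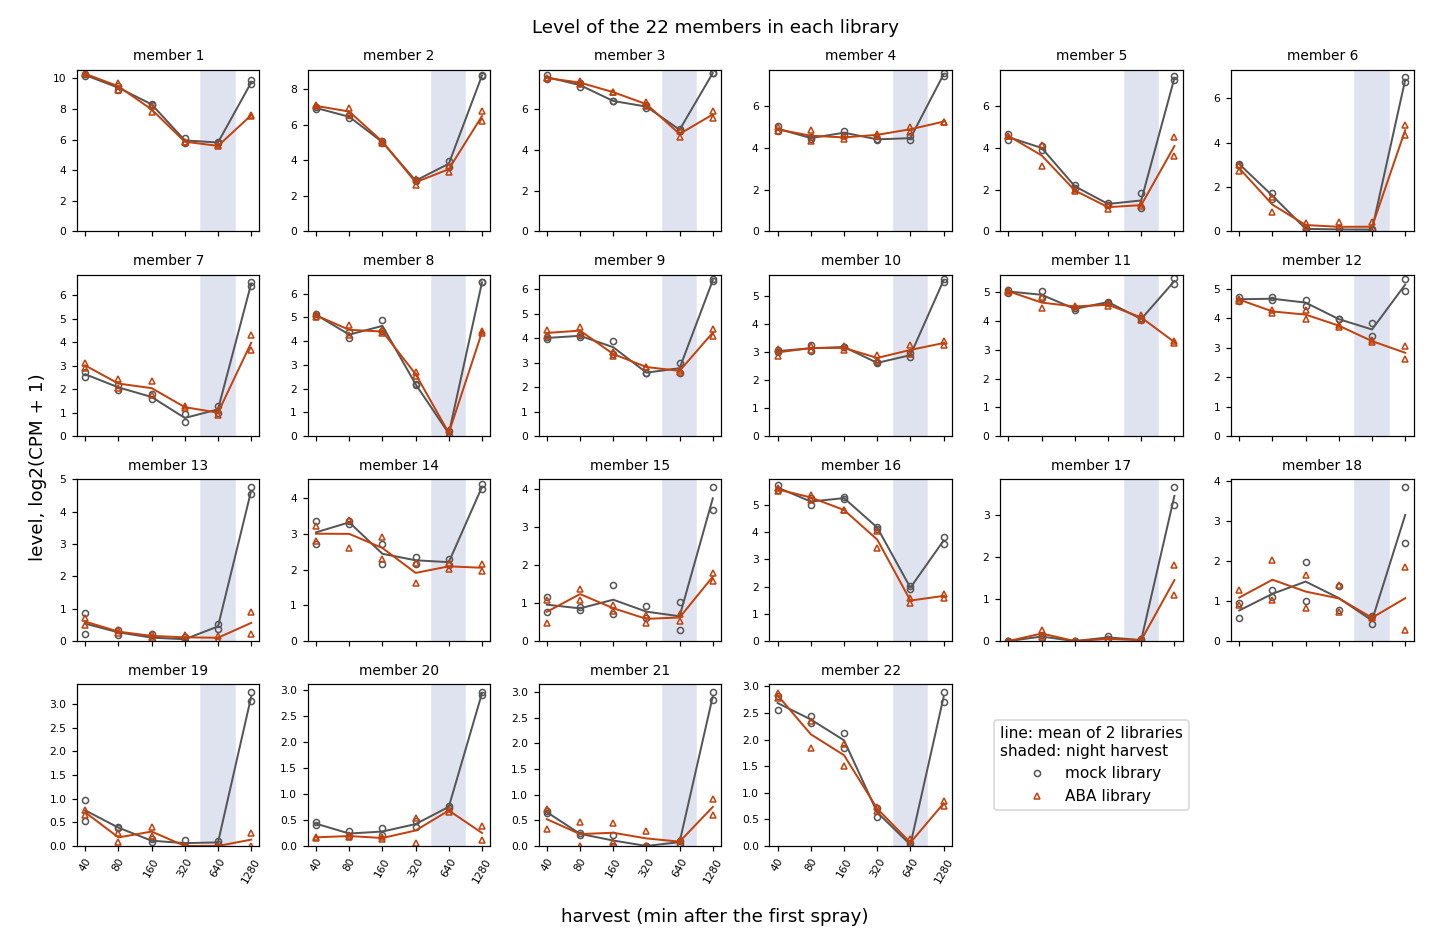
Level of each member as log2(CPM + 1) on the vertical axis against harvest in min after the first spray, with 1 panel per member. Circles are mock libraries, triangles ABA libraries, lines the means of 2 libraries, and the shaded column the night harvest. The treatments run together up to 640 min and part at 1280 min, where mock leaves are higher in all 22 panels, as the choice of members fixes.

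In mock leaves the morning harvest was the high point for most members. The 22 members together held 0.180% and 0.184% of all counts in the mock libraries of 1280 min, against 0.0236% to 0.134% in the 10 earlier mock libraries. In ABA libraries of 1280 min they held 0.0608% and 0.0583%. Both mock libraries of 1280 min lay above all 10 earlier mock libraries for 19 of 22 members, against 22.2% of all 16461 features. For ABA leaves the same held for 6 members, against 17.2% of all features. These counts share the 1280 min libraries that chose the members, which favours a high mock level and a low ABA level, so they are given as a description. In leaf extracts, fewer cells of a type and less RNA per cell cannot be told apart.

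KMT15322 (member 1) had the most counts. In mock leaves it stood at 1139 and 1238 CPM at 40 min, 66.7 and 54.9 CPM at 320 min, 57.1 and 53.0 CPM at 640 min, and 929 and 777 CPM at 1280 min. In ABA leaves it stood at 1287 and 1230 CPM at 40 min, 57.2 and 56.8 CPM at 320 min, 46.0 and 48.1 CPM at 640 min, and 188 and 195 CPM at 1280 min. The level was thus high in late morning, low by afternoon and night, and high again at 1280 min, when the ABA libraries reached 22.5% of the mock mean without overlap.

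KMT17504 (member 2) followed a similar course with a higher second peak. Its mock libraries held 119 and 125 CPM at 40 min, 6.33 and 6.07 CPM at 320 min, 11.4 and 14.6 CPM at 640 min, and 428.5 and 439 CPM at 1280 min. Its ABA libraries held 134 and 130 CPM at 40 min, 6.63 and 5.003 CPM at 320 min, 9.07 and 11.6 CPM at 640 min, and 109 and 71.9 CPM at 1280 min. The ABA leaves were higher at 1280 min than at 640 min too, but stayed under their own level of 40 min, while mock leaves passed theirs.

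The 2 members with the lowest d at 1280 min were KMT15462 (member 13) and KMT00354 (member 5). KMT15462 was almost without reads before the morning, from 0 to 0.814 CPM over the 20 libraries of 40 to 640 min. At 1280 min it stood at 26.1 and 22.3 CPM in mock leaves and at 0.855 and 0.176 CPM in ABA leaves, from 383 and 354 counts against 21 and 4. The ABA level was 2.13% of the mock level, and the log2 fold change was -5.52 ± 0.56 (SE, edgeR). Leaving out ABA replicate 1 gave -7.06, and leaving out replicate 2 gave -4.81.

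KMT00354 ran from 1.10 to 23.9 CPM over the earlier libraries, with its lowest values at 320 and 640 min. At 1280 min it stood at 151 and 171 CPM in mock leaves and at 22.04 and 11.4 CPM in ABA leaves. The groups did not overlap, and the log2 fold change was -3.26 ± 0.32 (SE, edgeR), with -3.82 when ABA replicate 1 was left out and -2.86 when replicate 2 was.

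A very low ABA level in the morning was also seen for members 19 and 20. Member 19 had 107 and 135 counts in mock libraries and 5 and 0 in ABA libraries at 1280 min, a ratio of 0.0133 (exact 95% counting interval 0.00429 to 0.0315). Member 20 had 99 and 103 counts against 2 and 7, a ratio of 0.0287 (0.0129 to 0.0556). These intervals cover counting error only. For the other 19 members the ABA mean of 1280 min lay between 10.4% and 24.2% of the mock mean, so a part of the morning level was still present.

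**Figure D2:**
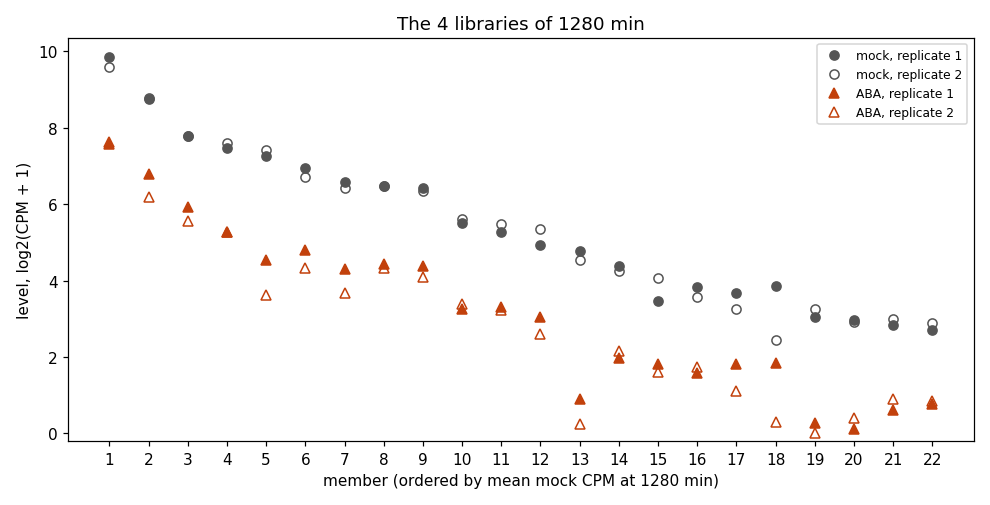
Level as log2(CPM + 1) of each member in the 4 libraries of 1280 min, with members along the horizontal axis, circles for mock, triangles for ABA, filled for replicate 1 and open for replicate 2. Mock libraries lie above ABA libraries for every member, which the rule requires, and ABA replicate 2 lies below replicate 1 for 14 of 22 members.

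All 22 members passed edgeR's threshold (adjusted p under 0.05) as lower at 1280 min, against 22.2% of all 17561 tested features. The rule used this contrast, so nothing is read from the count. Fitted log2 fold changes ran from -2.04 (member 3) to -6.16 (member 19). The weakest call was member 18, with an adjusted p of 0.013, whose libraries were far apart within both groups: 13.4 and 4.41 CPM in mock leaves and 2.61 and 0.219 CPM in ABA leaves.

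The 2 ABA libraries of 1280 min were also compared over the members, which are not replicates. ABA replicate 2 was below replicate 1 for 14 of 22 members, with a median difference of -0.24 in log2(CPM + 1), against 46.8% of all features and a median of 0.03. For mock leaves the corresponding count was 12 of 22, with a median of -0.01, against 50.9% and a median of -0.01 over all features. With scaling to library size alone, the count in ABA leaves was 12 of 22 in place of 14. The widest gaps in ABA leaves were in member 18, at -1.56, and in KMT00354, at -0.90. The rule did not use this gap, and with 1 library on each side it has no test. It was not particular to the members. Of the 406 other features lower with ABA in the morning, 345 were lower in ABA replicate 2 than in replicate 1, with a median of -0.54. In mock leaves 280 of those 406 were lower in replicate 2, with a median of -0.12. The 100 features with the most counts at 40 min held 26.2% of counts in ABA replicate 1 and 16.8% in replicate 2. In mock leaves of 1280 min they held 41.9% in replicate 1 and 39.8% in replicate 2. Their part in the gap was not tested.

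From night to morning the mean log2(CPM + 1) was higher for all 22 members in mock leaves. In ABA leaves it was higher for 18 members and lower for 4. In mock leaves both libraries of 1280 min lay above both libraries of 640 min for 22 of 22 members (39.8% of all features), with a median difference of 3.07 in log2(CPM + 1) against -0.05 over all features. In ABA leaves they did so for 16 members (36% of all features), with a median of 0.71 against -0.02, and the order was opposite for 3 members (38.3% of all features). A difference of at least 1 in log2(CPM + 1) was present in both treatments for 9 members and in mock leaves alone for the other 13. At low levels this is not the same as a doubling, because 1 CPM is added. Among those 13, members 13, 18, 19, 20, 21 and 22 had ABA means under 1 CPM at 640 min. For members 13, 18, 21 and 22 the ABA means of 1280 min were 2.84-fold to 16.3-fold higher. The 2.84-fold of member 18 rests on 1 library, with 2.61 and 0.219 CPM at 1280 min. Member 20 was lower at 1280 min, at 0.194 against 0.603 CPM. Member 19 had no ABA counts at 640 min and 5 and 0 at 1280 min. The mock difference exceeded the ABA difference for all 22, which follows from d near 0 at 640 min and at most -2 at 1280 min.

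**Figure D3:**
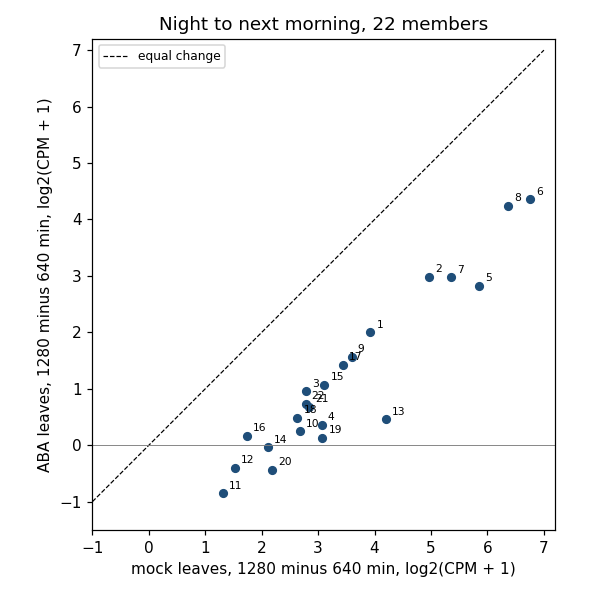
Difference in mean log2(CPM + 1) between 1280 and 640 min in mock leaves (horizontal axis) and in ABA leaves (vertical axis), 1 numbered point per member, with a dashed line of equal change. All 22 points lie below the line, as the rule fixes, and their spread along it runs from 1.32 to 6.75 in mock leaves and from -0.85 to 4.36 in ABA leaves.

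The members differed widely in the size of that morning difference. Member 6 had 1787 and 1649 counts in the mock libraries of 1280 min after 2 and 1 at 640 min, and 654 and 438 in the ABA libraries after 0 and 11. Its mock ratio was 2150 (exact 95% counting interval 734 to 10400). Member 17 had 171 and 135 counts in mock leaves at 1280 min and at most 2 counts in any earlier mock library, and it had 61 and 26 counts in ABA leaves. Both were thus present in ABA leaves too, at 20.3% and 18.0% of the mock mean.

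Members 11 and 12 had the smallest difference from night to morning in mock leaves, 1.32 and 1.52 in log2(CPM + 1). Member 11 stood at 32.8 and 30.03 CPM at 40 min, 16.3 and 15.2 CPM at 640 min and 37.5 and 44.0 CPM at 1280 min in mock leaves. In ABA leaves it went from 32.3 and 30.9 CPM at 40 min and 17.4 and 15.3 CPM at 640 min to 8.88 and 8.34 CPM at 1280 min, below all 10 earlier ABA libraries. Member 12 showed the same order, with 7.29 and 5.09 CPM in ABA leaves at 1280 min, also below all 10 earlier ABA libraries, and 29.6 and 39.6 CPM in mock leaves. For these 2 the ABA mean of 1280 min was the lowest of the 6 harvests, and for the other 20 it was not. Members 14 and 20 also had an ABA mean at 1280 min under that of 640 min. These were 3.16 against 3.27 CPM for member 14 and 0.194 against 0.603 CPM for member 20.

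Compared with 40 min, later in the light period, the mock level of 1280 min was at least 1 higher in log2(CPM + 1) for 16 members (11.1% of all features) and at least 1 lower for 1 (10.9%). The exception was member 16, at 51.7 and 46.0 CPM at 40 min and 13.1 and 10.8 CPM at 1280 min in mock leaves, and at 44.4 and 48.6 CPM and then 2.00 and 2.33 CPM in ABA leaves. In ABA leaves 2 members were at least 1 higher than at 40 min (12.7% of all features), 6 at least 1 lower (13.9%) and 14 in between. By the order of libraries, both mock libraries of 1280 min lay above both of 40 min for 19 members (39.4% of all features) and below for 2 (37.2%). In ABA leaves they lay above for 6 members (38.6%) and below for 11 (39.1%). The members' median difference from 40 min was 2.37 in mock leaves and -0.27 in ABA leaves, where leaving out ABA replicate 1 of 1280 min gave -0.73 and leaving out replicate 2 gave -0.046. Among the 406 other features that were lower in ABA leaves in the morning, these medians were 0.43 and -2.09, and the mock difference from night to morning had a median of 1.74. Features are not replicates, and these differences between groups of features were not tested.

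The steps between harvests from 40 to 640 min were not in the rule, but the rule used the libraries of all 5 harvests. Features at low levels late in the day meet its limit of 0.5 in log2(CPM + 1) more easily, which can favour members that fall, so the calls below describe the members and are not independent of their choice. Over these 5 harvests 17 of 22 members changed in mock leaves (edgeR quasi-likelihood F-test over the 5 means, adjusted p under 0.05), against 69.4% of all tested features, so the share is near the background. In ABA leaves 15 changed, against 66.7%. It was 14 members in both, and 4 in neither. Of the 5 harvests, the highest mock mean was at 40 min for 14 members and the lowest at 320 or 640 min for 20.

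The direction was more uneven than the share. From 40 to 320 min, late morning to afternoon, 18 of 22 members fell in mock leaves (edgeR, adjusted p under 0.05), against 22.4% of all tested features. None rose by edgeR (0 at an unadjusted p under 0.05 and 0 by DESeq2), against 22.2% of all features. In ABA leaves 15 members fell, against 22.4%, and none rose (0 at an unadjusted p under 0.05 and 0 by DESeq2), against 25%. All 15 that fell in ABA leaves also fell in mock leaves. The median difference in log2(CPM + 1) over all 22 members was -0.74 in mock and -0.99 in ABA leaves, against 0.01 and 0.03 over all features. The 406 other features lower with ABA in the morning had medians of -0.69 in mock and -1.55 in ABA leaves, and the difference between the groups of features was not tested. Members 13, 19 and 21, which fell in mock leaves, averaged under 1 CPM before the morning. With scaling to library size alone, which moved the median of all features to 0.46 in mock and 0.62 in ABA leaves, 13 members fell and 0 rose in mock leaves, and 11 fell and 2 rose in ABA leaves. In that scaling the members' medians were -0.51 and -0.54.

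Of the members described above by library, KMT15322 fell by 4.29 ± 0.20 on the log2 scale in mock leaves (SE, edgeR adjusted p = 2.36e-11) and fell by 4.46 ± 0.20 in ABA leaves (edgeR adjusted p = 2.55e-11). KMT17504 fell by 4.29 ± 0.22 in mock leaves (edgeR adjusted p = 5.35e-11) and fell by 4.49 ± 0.22 in ABA leaves (edgeR adjusted p = 4.21e-11). KMT00354 went from 19.7 and 23.9 CPM to 1.40 and 1.56 CPM in mock leaves, and from 22.6 and 22.9 to 1.36 and 1.10 CPM in ABA leaves. In each of the 3, all libraries of 320 min lay below all libraries of 40 min.

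Member 6 had 247 counts in mock leaves at 40 min and 3 at 320 min, a ratio of 0.00884 (exact 95% counting interval 0.00181 to 0.0262). The 5.09 fall on the log2 scale in ABA leaves rests on 10 and 0 counts at 320 min. Member 21 had 20 counts at 40 min and 0 at 320 min in mock leaves, at least 9.15-fold lower (floor of 3 counts over the group). Member 19 had 21 and 0 in ABA leaves, at least 12-fold lower by the same floor. At the small end of those that fell in mock leaves were member 11, by 0.38, member 10, by 0.49, and member 4, by 0.54 on the log2 scale. Members 4 and 10 did not pass in ABA leaves, where their values were -0.26 and -0.23 (edgeR adjusted p = 0.169 and 0.278). The difference between treatments in this step was not tested, since the rule bounds it.

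**Figure D4:**
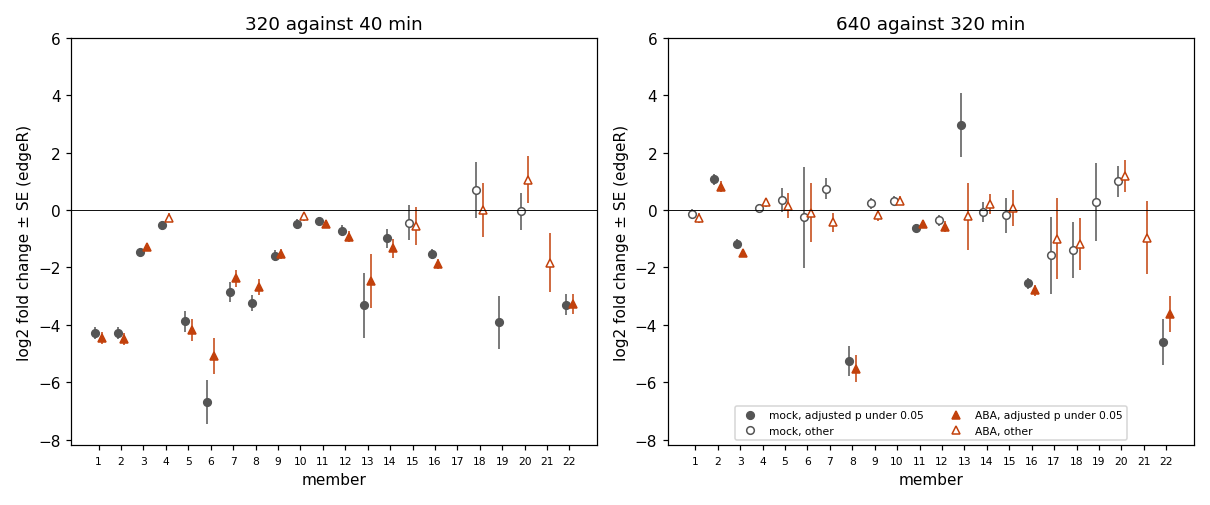
Log2 fold change with its SE (edgeR) for each member, from 40 to 320 min in the left panel and from 320 to 640 min in the right, with circles for mock leaves, triangles for ABA leaves and filled symbols for an adjusted p under 0.05. Points are left out where a group held no counts. All filled symbols of the left panel lie below 0, and those of the right panel lie on both sides.

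From 320 to 640 min, afternoon light to night, the members did not share a direction. In mock leaves 5 fell (edgeR, 17.1% of all tested features fell) and 2 rose (16% rose). In ABA leaves 6 fell (16.9%) and 1 rose (14.4%). With scaling to library size alone these were 4 and 7 in mock and 4 and 4 in ABA leaves. The 5 that fell in mock leaves also fell in ABA leaves. The member that rose in ABA leaves, KMT17504, did not pass without ABA replicate 2 of 320 min or without ABA replicate 2 of 640 min, where no member did, and 2 rose without ABA replicate 1 of 320 min.

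KMT06794 (member 8) had the lowest fitted log2 fold change, on few counts at 640 min. Its mock libraries went from 3.46 and 3.64 CPM at 320 min to 0 and 0.166 CPM at 640 min, which is -5.26 ± 0.53 on the log2 scale (SE, edgeR adjusted p = 1.05e-06). The ABA libraries went from 4.75 and 5.48 CPM to 0 and 0.210 CPM, or -5.53 ± 0.48 (SE, edgeR adjusted p = 9.3e-08). At 1280 min it was back at 87.9 and 87.5 CPM in mock leaves and at 20.6 and 19.01 CPM in ABA leaves. The mock value was -4.38 without mock replicate 1 of 640 min, which held no counts, and -9.27 without mock replicate 2, which held 5. In log2(CPM + 1) the largest difference was that of member 16, at -2.21, from 16.5 and 17.5 CPM to 2.78 and 3.01 CPM in mock leaves.

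KMS95196 (member 22) had the next lowest fitted value, -4.59 on the log2 scale, or -3.84 without mock replicate 1 of 640 min and -6.59 without mock replicate 2. It went from 11 and 15 counts to 0 and 1 in mock leaves, a ratio of 0.0319 (exact 95% counting interval 0.000777 to 0.194, edgeR adjusted p = 0.00026). It was also the member nearest to the limit of -2 at 1280 min, with d of -2.0005, 5.53 and 6.43 CPM in mock leaves and 0.692 and 0.790 CPM in ABA leaves. The nearest feature outside that limit had d of -1.98, with mean levels of 5.82 and 0.732 CPM. A further 72 features were flat and separated with d between -2 and -1.5. At the other limit, member 16 was nearest inside, with a largest earlier gap of 0.473, and the nearest feature outside had 0.5004.

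The 2 that rose into the night in mock leaves were KMT15462 and KMT17504. KMT17504 rose by 1.07 ± 0.20 on the log2 scale (SE, edgeR adjusted p = 0.000561) and, in ABA leaves, by 0.82 ± 0.20 (edgeR adjusted p = 0.00442). KMT15462 had 2 and 0 counts at 320 min and 12 and 9 at 640 min in mock leaves, a ratio of 8.7 (exact 95% counting interval 2.13 to 76.5, edgeR adjusted p = 0.0471). That call was lost without any one of the 4 mock libraries: the adjusted p was 0.0644 without mock replicate 1 of 320 min, 0.245 without mock replicate 2 of 320 min, 0.162 without mock replicate 1 of 640 min and 0.0791 without mock replicate 2 of 640 min. In ABA leaves KMT15462 had 4 and 1 counts at 320 min and 1 and 4 at 640 min.

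Before the morning the treatments were close but not identical. By edgeR 3 of 22 members differed between ABA and mock leaves at one of the 5 earlier harvests, against 41% of all tested features, and the limit of 0.5 bounds these differences. None did at 40, 80 or 320 min, where 0.131%, 5.92% and 25.8% of all features differed (0, 1 and 2 members at an unadjusted p under 0.05). At 160 min, where 13.6% of all features differed and 8.55% were higher, member 3 was higher with ABA (115 and 113 CPM against 83.7 and 84.5 CPM, log2 fold change 0.44, edgeR adjusted p = 0.0456). At 640 min, where 24.7% differed, 11.2% higher and 13.6% lower, member 4 was higher (26.5 and 31.2 CPM against 22.7 and 19.6 CPM, 0.45 on the log2 scale, edgeR adjusted p = 0.0363). Member 16 was lower at 640 min (1.97 and 1.65 CPM against 2.78 and 3.01 CPM, -0.67 on the log2 scale, edgeR adjusted p = 0.027). The count over the 5 harvests was 4 by DESeq2, 0 without mock replicate 1 of 640 min, 1 without mock replicate 2 of 640 min, 1 without ABA replicate 2 of 640 min, 1 with a replicate block within harvests and 0 at an adjusted p of 0.01.

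From the first harvest to the last, the members' median d ran through -0.02, 0.05, -0.08, -0.02, -0.07 and -2.20. Over all features these medians were 0.00, 0.00, -0.01, -0.01, -0.02 and 0.04. At 640 min both ABA libraries lay below both mock libraries for 7 members, against 35.9% of all features.

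For the members with few reads, flatness before the morning says little, because adding 1 CPM hides differences between low values. Members 13, 15, 17, 19, 20 and 21 averaged under 1 CPM over the 20 earlier libraries, as did 8.81% of all features. By single harvests, 11 members had a mock mean under 1 CPM at some earlier harvest. Members 6, 8 and 22 were among them, with mock means of 0.054, 0.083 and 0.017 CPM at 640 min. KMT15462 had d of -0.35 at 640 min on 0.444 and 0.298 CPM in mock against 0.030 and 0.120 CPM in ABA leaves, while its fitted log2 fold change was -2.20 ± 0.90 (SE, edgeR adjusted p = 0.086). Among the 16 members that averaged at least 1 CPM over the 20 earlier libraries, 15 fell from 40 to 320 min in mock leaves and 13 in ABA leaves. With a pseudocount of 0.1 CPM in place of 1 CPM the rule found 19 features, 12 of them among the 22. Only 1 of the 6 members that averaged under 1 CPM was kept, and some of the other 16 were lost too.

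Membership also turned on single libraries and on scaling. Without ABA replicate 1 of 1280 min, 45 features met the rule, 20 of them among the 22, and without any other library of 1280 min between 20 and 28 did. With scaling to library size alone 8 features met it, 4 of them among the 22. That scaling moved the median d of all features at 1280 min from 0.04 to 0.56 and that of the members from -2.20 to -1.59, so the members lay -2.24 from the median of all features under TMM and -2.15 under library size alone.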

How the data were processed

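Leaf RNA of 24 libraries was measured by RNA-seq; stranded TruSeq mRNA libraries were sequenced as 150 bp single reads, per the labels' protocols. The series' design text says that sample conditions and replicates were corrected after deposit; the labels are used as they now stand. The deposited values are whole-number counts per feature and library, with no normalisation; features not listed in a library were taken as 0. CASAVA, Trimmomatic and DESeq2 are listed, without versions, in the submitters' processing notes. Aligner, counter, reference and strand setting: not given in the sources used here. Near-identical or overlapping features may share reads.

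Features with a mean of at least 10 counts (16461 of 20617) were scaled with TMM and sorted by the rule, with a pseudocount of 1 CPM. For tests, edgeR 4.0.16 in R 4.3.3 kept 17561 features (minimum count 10) and fitted a robust quasi-likelihood model with 12 group means to all libraries (12 residual degrees of freedom). Tests were two-sided, with Benjamini-Hochberg adjustment over all tested features and a threshold of 0.05. Each SE was taken from the fold change (log2) and its F, as their quotient after taking the root of F. DESeq2 1.42.0 was an alternative. The fits were checked on simulated counts with planted changes. The rule was checked only on simulated features with many counts and a steady level apart from a drop in ABA leaves of 1280 min. That check does not cover members with few reads or with levels that change through the day. The members and tests were chosen with earlier results of these data known. Identifiers were printed for the 2 members with the lowest d, the 2 with the highest mock level at 1280 min, and the 2 that rose and fell most from 320 to 640 min in mock leaves; member 22 was also nearest inside the limit of -2, and the nearest feature outside is given without its identifier. With no gene names, the planned gene lists were not used.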

Additional observations from a re-analysis of the deposited data

How the results depend on the processing

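Counts of members that fell from 40 to 320 min, or changed over 40 to 640 min, stayed within 1.5 times of the reported values in every alternative run. With library size alone, 1692 features were lower at 1280 min (3891 with TMM), 7 members rose from 320 to 640 min in mock and 4 in ABA leaves, 2 rose from 40 to 320 min in ABA leaves, and 8 features met the rule. The members' median differences from night to morning were then 2.48 in mock and 0.62 in ABA leaves, and that from 40 to 1280 min in mock leaves 2.20. At an adjusted p of 0.01, 1316 features differed at 160 min (2390 at 0.05), 2647 at 640 min (4343 at 0.05), 0 members at any earlier harvest, and 1 member rose into the night in mock leaves. Without the expression filter that last count was also 1. The rule found 14 features with a mean of at least 100 counts, 4 with a limit of 0.25 at the earlier harvests, 140 with a limit of 1, and 21 with TMM factors from all features, the last chosen after seeing the data.

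Leaving out 1 library at a time gave 20 to 45 features meeting the rule, 1194 (without mock replicate 2) to 1939 differing at 160 min, 2441 (without mock replicate 1) to 2949 at 640 min, and 0 to 4 members at any earlier harvest. It gave 1 member rising into the night in mock leaves in each run, 0 to 2 in ABA leaves, and 0 to 1 rising from 40 to 320 min in ABA leaves. Without 1 of the 4 libraries of 1280 min, the medians from night to morning ran from 3.00 to 3.16 in mock and 0.71 to 0.96 in ABA leaves. Those from 40 to 1280 min in ABA leaves ran from -0.73 to -0.046. No library of 40 or 640 min was left out for these medians. The range of 20 to 45 features meeting the rule likewise comes from leaving out only the 4 libraries of 1280 min. How the rule's count depends on single libraries of 40 to 640 min, which set the limit at the earlier harvests, was not tested. The count of members that fell from 40 to 320 min ran from 13 to 16 in mock and 13 to 14 in ABA leaves. The causes were not tested.

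Samples with the same replicate number did not deviate together throughout: correlations of their deviations ran from -0.112 to 0.127 between treatments at a harvest and from -0.322 to 0.292 between harvests within a treatment, so the numbers were not taken as pairs. A replicate block within harvests left 1 member differing at an earlier harvest in place of 3 and 22 lower at 1280 min. A replicate block within treatments gave 18 members changing over 40 to 640 min in mock leaves and 15 in ABA leaves.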
